A study of Mus musculus with 4 samples.

Results

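The genes described here make the amino acid serine, carry its carbon on folate, make asparagine or bring amino acids into the cell. They were read from lenses of Celf1 cKO and Control mice. They are 10 genes of mouse, and every probe carrying 1 of their symbols in the deposited normalized table was taken. Of the 10 genes, 9 had a probe, 8 had a probe detected in at least 2 samples and entered the fit, which held 11518 genes in all. Phgdh and Psat1 were chosen by their values on these same arrays, because they moved in opposite directions in Celf1 cKO lenses, so their differences are given as a description with no test. The other 8 genes, Psph, Shmt1, Shmt2, Mthfd2, Asns, Slc7a11, Slc7a5 and Slc3a2, joined them by pathway.

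Serine is built inside the cell from an intermediate of glycolysis. Phgdh makes the first and committed oxidation, Psat1 adds the amino group taken from glutamate, and Psph removes the phosphate to release serine. Shmt1 in the cytosol and Shmt2 in mitochondria pass a carbon from serine to folate and leave glycine, and Mthfd2 carries that carbon further in mitochondria. Asns makes asparagine from aspartate and glutamine. Slc7a11 and Slc7a5 are light chains of transporters that share the heavy chain Slc3a2, and they bring in cystine and large neutral amino acids. Cystine taken up through Slc7a11 feeds glutathione, which lens cells hold at high levels. Many of these genes, Phgdh, Psat1 and Asns among them, are known targets of the transcription factor Atf4 in the integrated stress response, a pathway that answers amino acid shortage and unfolded protein.

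RNA of 1 lens at postnatal day 6 was hybridised to each Illumina MouseWG-6 v2.0 BeadChip, with 2 Celf1 cKO samples and 2 Control samples, each named A and B. Celf1 encodes an RNA-binding protein that controls splicing, decay and translation of mRNAs. The cKO mice had a lacZ knock-in allele and a floxed allele of Celf1 with a Cre driven by a Pax6 promoter that is active in the lens from the placode stage and also in the pancreatic lineage. Control mice had 1 lacZ knock-in copy and 1 wild-type copy of the gene, so both groups carried a lacZ allele, and the sources used here do not say that Controls carried Cre. C57BL/6 and FVB were mixed in the background of the cKO mice, and the sources used here do not give that of the Controls separately.

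The targeted gene was lower on both cKO arrays. Celf1 had log2 signals of 7.45 and 6.95 in cKO A and B, and of 8.71 and 8.55 in Control A and B. The difference was -1.43 ± 0.19 (SE, n = 2 and 2; adjusted p = 0.00977, limma), and 4 of its 5 probes were detected on all arrays. Without Control B the difference was -1.53 and was not called. That fit holds 1 Control array and takes its spread from the cKO arrays. Whether these probes lie in the floxed exon was not analysed here. Between 14180 and 16925 probes were detected on an array, more on the cKO arrays than on the Control arrays. The cKO arrays were also brighter before scaling, with a 99th percentile of unnormalized intensity of 3209 and 3444 against 2158 and 1699. Of 6 lens fiber and 6 lens epithelium markers, all were tested, and Bfsp2 and Foxe3 fell in cKO lenses. The retinal markers Rlbp1, Rcvrn and Sag had no probe detected on any array, and Gfap fell. Of 4 muscle markers 0 were tested. Of 4 vessel markers 4 were tested, with Kdr at -0.59 and Cdh5 at 0.58, and 0 were called, beside 11.7% of all genes. Of 4 blood markers 2 were tested, Hba-a1 and Hbb-b1, and of 4 pigment cell markers 1, Pmel. Hba-a1, Hbb-b1 and Pmel were detected on all 4 arrays and were not called. Of 6 macrophage markers, 3 were tested. Cd68 entered only through the cKO arrays, which favours a higher signal there, and it was at least 1.26-fold higher. Aif1 and Csf1r differed by -0.06 and -0.11 and were not called. C1qa, Ptprc and Lyz2 had no probe detected in at least 2 samples. All 4 probes of Xist were detected on both cKO arrays and on 0 Control arrays, and the Y-linked Ddx3y was detected on all 4 arrays and was brighter on both Control arrays (461 and 322) than on the cKO arrays (170 and 61.5). The labels give no sex, and as far as these genes mark it genotype and sex cannot be told apart. In bulk RNA, fewer cells of a type and less RNA per cell cannot be told apart either.

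The probes of Phgdh and Psat1 are shown because each gene was read by 1 probe, so that every statement on it rests on these bases. The Phgdh probe of 50 bases spans a junction between blocks of the transcript after its base 34, and 30 of its bases are given, with those past the junction in capitals. Of the Psat1 probe, which lies in 1 block, the first 30 bases are given, with none marked.
Phgdh, probe bases 19 to 48: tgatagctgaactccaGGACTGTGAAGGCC
Psat1, probe bases 1 to 30: ctaatgaaacagttttgttcagcccatgac
In RefSeq (GRCm38.p6), Phgdh lies at chr3:98313171-98339969 and Psat1 at chr19:15905123-15925059. The positions that the files give for the probes lie outside these intervals and name no build, so the exons they fall in were not analysed here.

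Psat1 signal was higher and Phgdh signal was lower in both cKO lenses. Phgdh had log2 signals of 7.25 and 7.27 in cKO A and B and of 8.21 and 8.28 in Control A and B. Both cKO values were below both Control values, and the replicates of each group lay close together. The difference was -0.98 ± 0.13 (SE, n = 2 and 2), which is a signal 1.98-fold lower in cKO. Psat1 had log2 signals of 10.60 and 10.98 in cKO A and B and of 9.67 and 9.76 in Control A and B. Both cKO values were above both Control values, with cKO B the highest. The difference was 1.07 ± 0.17 (SE, n = 2 and 2), or 2.11-fold higher. That the groups do not overlap in this pair follows from how it was chosen. Of the 6 other members in the fit, 2 had groups with no overlap, Asns and Slc3a2, beside 62.3% of all genes tested.

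**Figure D1:**
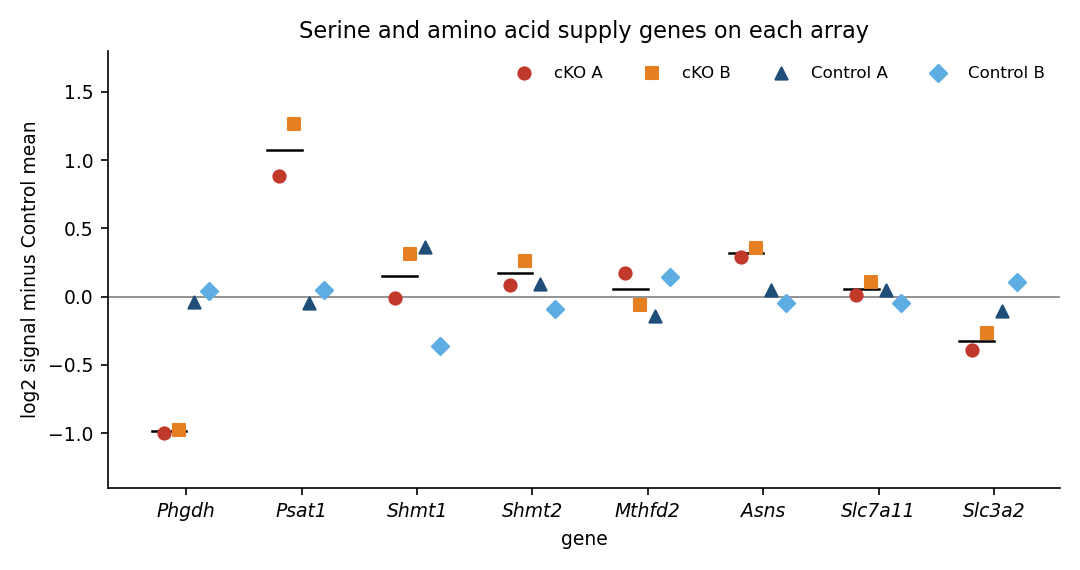
Log2 signal of each gene in the fit on each array, after background correction and quantile normalization, minus the mean of both Control arrays of that gene. Points are arrays and black bars are cKO means. The cKO mean is -0.98 for Phgdh and 1.07 for Psat1, and between -0.33 and 0.32 for the other 6 genes.

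Before scaling, the groups were apart for Psat1 and overlapped for Phgdh. Psat1 read 2022 and 2736 in cKO A and B against 715 and 595 in Control A and B, with standard errors over beads of 91.8, 124, 31.5 and 49.5. Both cKO arrays were the brighter ones. Phgdh read 224 and 242 in cKO A and B against 278.5 and 231 in Control A and B, with standard errors over beads of 6.19, 11.9, 9.06 and 15.6. Control B was below cKO B, so that the groups overlapped. In the deposited normalized table Phgdh read 168 and 178.5 against 344 and 372, and Psat1 1809 and 2396 against 980 and 1075. A line fitted per array gives the step to that table as a factor, 0.913 and 0.889 for the cKO arrays and 1.46 and 1.93 for the Control arrays, plus a constant, -36.1 and -36.5 for the cKO arrays and -62.8 and -74.7 for the Control arrays. In the normalized table the groups did not overlap for either gene.

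**Figure D2:**
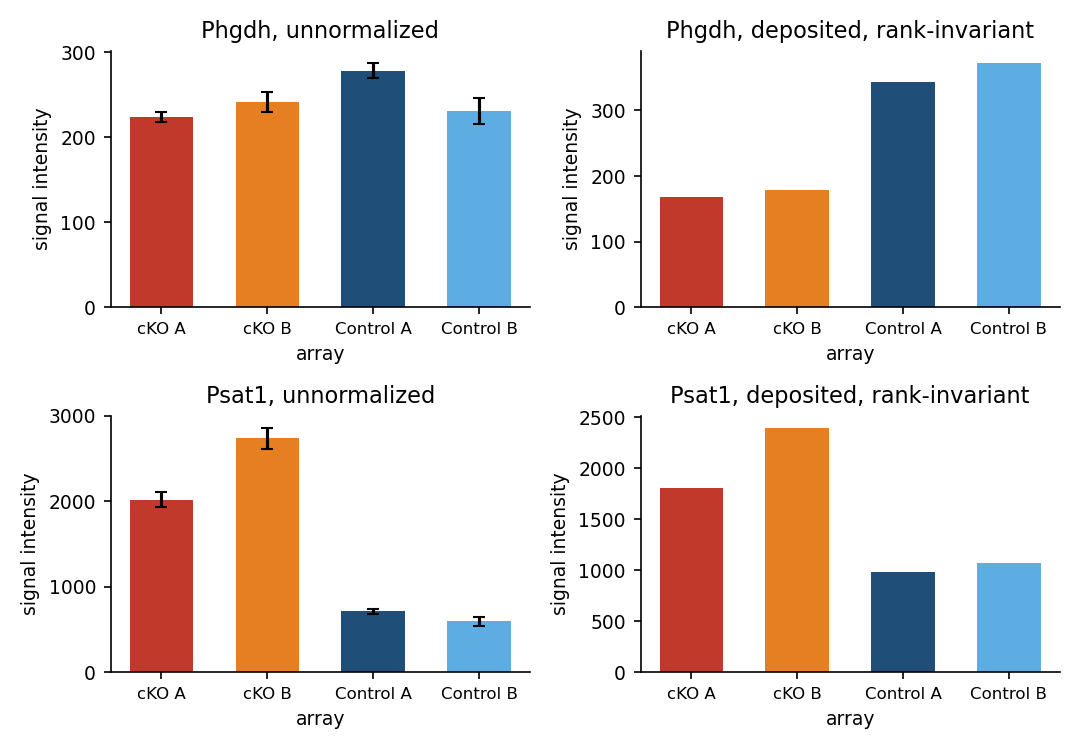
Signal intensity of the Phgdh probe (top) and the Psat1 probe (bottom) on the 4 arrays, unnormalized (left) and in the deposited rank-invariant table (right). Error bars on the left are standard errors over beads. Phgdh is 224 to 242 in cKO and 231 to 278.5 in Control before scaling, and 168 to 178.5 against 344 to 372 after it.

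A ratio taken within an array does not depend on a factor that multiplies the whole array. The unnormalized Psat1 signal divided by the Phgdh signal was 9.03 and 11.3 in cKO A and B, and 2.57 in each of Control A and B. The log2 of this ratio was higher in cKO by 1.98 in the unnormalized values, by 2.06 in the deposited normalized values and by 2.06 after background correction and quantile normalization. Both genes were chosen for this contrast, so a ratio that differs between the groups was fixed by the choice, and its size on each scale is given as a description. Over all 19 alternative settings Phgdh stayed below 0 and Psat1 above 0. With the same samples, Phgdh ranged from -1.04 to -0.15 and Psat1 from 1.01 to 1.895. The smallest Phgdh difference, -0.15, and the largest Psat1 difference, 1.895, both came without normalization between arrays, where the median of all genes was 0.57. Taken relative to the median of all genes, Phgdh lay between -1.05 and -0.72 and Psat1 between 0.91 and 1.32.

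**Figure D3:**
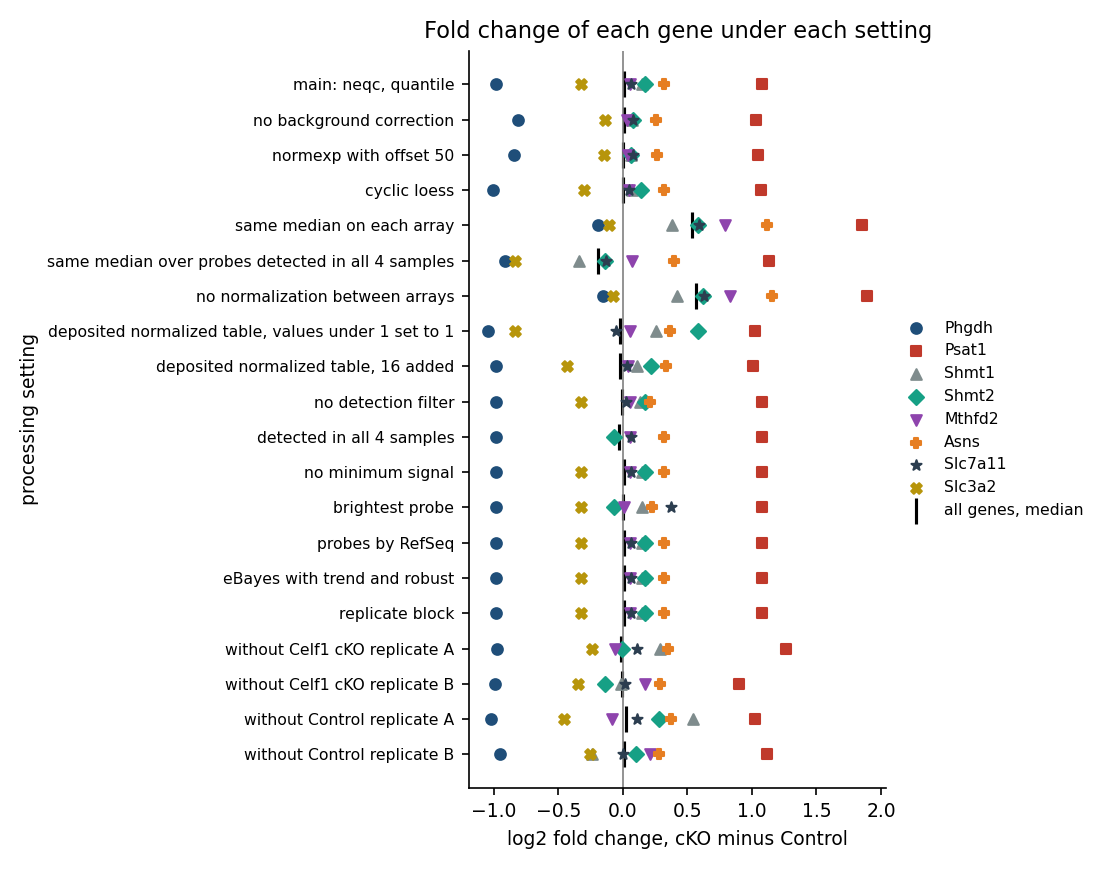
Log2 fold change, cKO minus Control, of each gene in the fit under the main processing (top line) and 19 alternatives, with the median of all genes as a vertical tick. Phgdh is the lowest of these genes and Psat1 the highest in each line. Where arrays were not normalized to each other or were given the same median over all probes, all of these genes lie further right than under the main processing.

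The third step of the pathway could not be followed. The single probe of Psph was detected on 0 of the 4 arrays, with unnormalized intensities from 41.5 to 42.3 and detection p-values from 0.338 to 0.825, so that no difference is given. Slc7a5 had no probe under that symbol.

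None of the 6 other tested members met the call, which asks for a mean log2 signal above 4.6, a log2 fold change beyond 0.58 in either direction and an adjusted p under 0.05. By limma, 0 of 6 were called and 0 of 6 had an unadjusted p under 0.05, beside 31.9% of all genes. Over all genes, 11.7% were called, 6.02% as elevated and 5.64% as reduced in cKO. The share called over all genes dropped on leaving out cKO A, and dropped most on leaving out cKO B or Control B. It did not drop on leaving out Control A. Each of these fits has 1 array in a group and takes its spread from the other group. The p-values measure only the spread between these samples, and with 2 lenses a group the intervals were wide.

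Of the folate enzymes, Shmt1 had log2 signals of 4.81 and 5.13 in cKO A and B against 5.18 and 4.46 in Control A and B. The groups overlapped, and Control A was the highest of the 4. The difference was 0.15 ± 0.25 (SE; 95% interval -0.44 to 0.75; adjusted p = 0.715, limma), from the 1 of its 2 probes that was detected, which was not detected in Control B. Shmt2, its mitochondrial counterpart, had 5.48 and 5.66 against 5.49 and 5.31, again with overlap. The difference was 0.17 ± 0.15 (SE; 95% interval -0.18 to 0.53; adjusted p = 0.465, limma). The probe detected on all 4 arrays gave -0.07. The other probe, detected on both cKO arrays and 0 Control arrays, entered only through the cKO group, and its signal there was at least 1.11-fold higher than the lowest signal among detected probes of the Control arrays. Mthfd2 had 7.92 and 7.69 against 7.61 and 7.89, and each group held 1 of the higher values. The difference was 0.06 ± 0.17 (SE; 95% interval -0.33 to 0.45; adjusted p = 0.835, limma), and its probes gave 0.01 and 0.10. For these 3 enzymes the intervals hold both 0 and changes of either sign.

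Asns, the asparagine synthetase, had the smallest p of these 6 genes. Its log2 signals were 7.90 and 7.97 in cKO A and B against 7.66 and 7.57 in Control A and B. Both cKO values were above both Control values. The difference was 0.32 ± 0.14 (SE, n = 2 and 2; unadjusted p = 0.0504 and adjusted p = 0.157, limma), with a 95% interval from -0.00065 to 0.65. Its detected probes gave 0.22 and 0.42, and a further probe was detected on 0 arrays. Asns was above 0 in all 19 alternatives, from 0.21 to 1.16.

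The transporter subunits gave small differences of either sign. Slc7a11, the cystine transporter, had 5.88 and 5.97 in cKO A and B against 5.92 and 5.82 in Control A and B, with overlap. The difference was 0.06 ± 0.14 (SE; 95% interval -0.27 to 0.39; adjusted p = 0.798, limma). Its 2 detected probes pointed in opposite directions, -0.25 and 0.37, and the other 3 were detected on 0 arrays, so the gene value is a mean of readings that disagree. Slc3a2, the shared heavy chain, had 4.55 and 4.68 against 4.84 and 5.05, with both cKO values below both Control values. The difference was -0.33 ± 0.15 (SE; 95% interval -0.68 to 0.02; unadjusted p = 0.0636 and adjusted p = 0.181, limma). Its signal was dim and was detected on 1 of 2 cKO arrays and on both Control arrays, and it was below 0 in all 18 alternatives that tested it.

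These calls depended on the scaling between arrays. With each array set to the same median over all probes, or with no normalization, 4 of the 6 were called as elevated (Shmt2, Mthfd2, Asns and Slc7a11), while the median of all genes was at 0.53 and 0.57 and 47.0% and 50.3% of all genes were called. With arrays aligned on the median of the probes that all 4 arrays detected, Slc3a2 was called as reduced, while the median of all genes was at -0.19 and 23.4% of all genes were called. Under the other alternatives, leaving out any 1 array included, 0 were called.

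The amino acid response element, which Atf4 binds, has the core TGATGNAA. It was searched on both strands in the 250 bases before each start in a RefSeq promoter set, which holds 9 members and need not hold every start. For Slc7a11 it holds 1 start, which lies inside the RefSeq interval of the gene, chr3:50364936-50499087. Asns had 1 match and Slc7a11 had 2, and the stretches are shown with the matches in capitals because these are the members in which the core was found.
Asns, chr6:7693210-7693252 of GRCm38.p6, minus strand: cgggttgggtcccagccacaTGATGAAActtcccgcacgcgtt
Slc7a11, chr3:50443633-50443699 of GRCm38.p6, minus strand: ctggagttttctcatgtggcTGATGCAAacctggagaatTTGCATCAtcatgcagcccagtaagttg
The core occurs in 3.45% of all 32851 promoters searched, and 13 promoters, 0.0396%, hold 2 or more. The Asns match lies at -23 to -16 from the start, and those of Slc7a11 lie at -66 to -59 and at -47 to -40. In the other 7 genes these letters were not in this window. A match describes the sequence and does not show binding in the lens.

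Genes whose values lay closest to those of the pair were found over the 4 arrays by the Euclidean distance between log2 values centred on each gene's mean. For Phgdh these were BC049762 (distance 0.0852, difference -0.96), Bckdhb, a subunit of the branched-chain ketoacid dehydrogenase (0.0856, -0.90), and Rragc, a GTPase of the lysosomal amino acid sensing machinery (0.0925, -0.98). For Psat1 they were Osbpl3, an oxysterol-binding protein relative (distance 0.0388, difference 1.09), Ifi30, a lysosomal thiol reductase (0.0447, 1.05), and Gse1 (0.0625, 1.05). With 2 groups of 2 arrays, this distance is small for any gene with a like difference between the groups and a like spread within them.

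The wider pathway was followed in 4 lists of related genes. Of 30 further genes of serine, glycine and one-carbon metabolism, 18 were tested, 2 rose and 0 fell, and the list median was -0.07 beside 0.01 over all genes tested. The share called, 11.1%, is at that of all genes (11.7%), so the count is no result about the list. Mtr, the methionine synthase that moves a folate carbon to homocysteine, had log2 signals of 5.67 and 5.64 in cKO against 4.99 and 4.29 in Control. Its difference was 1.02 ± 0.23 (SE, n = 2 and 2; adjusted p = 0.0360, limma), with detection on 1 of 2 Control arrays. Mat2b, a regulatory subunit of the enzyme that makes S-adenosylmethionine, had 6.31 and 6.50 against 5.83 and 5.55, a difference of 0.72 ± 0.16 (SE; adjusted p = 0.0346, limma). Both were higher on each cKO array than on either Control array. Without cKO A, cKO B or Control B, 0 genes of the list were called. Of 22 other amino acid enzymes, 15 were tested and by limma 0 were called, while 4 (26.7%) had an unadjusted p under 0.05, a share below that of all genes (31.9%), and the list median was -0.05. Without cKO A, 1 gene of that list was called, and without Control A, 2 were.

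Amino acid transporters bring these molecules across the cell membrane. Of 31 genes, 18 were tested, 3 rose and 0 fell, and the list median was 0.28. Among the 16 transporters detected in both groups, 2 rose (12.5% called, beside 11.4% of all genes so detected), so the count is no result about the list. Slc1a4, which carries serine, alanine and cysteine, had log2 signals of 9.01 and 9.07 in cKO against 7.60 and 7.99 in Control, a difference of 1.25 ± 0.17 (SE, n = 2 and 2; adjusted p = 0.00987, limma). Slc6a6, the taurine transporter, had 9.98 and 10.41 against 9.42 and 9.31, a difference of 0.83 ± 0.18 (SE; adjusted p = 0.0312, limma). Neither gene had groups that overlapped. Slc7a3, a carrier of cationic amino acids, was detected on both cKO arrays and on 0 Control arrays. It entered the fit only through the cKO arrays, which favours a higher signal there, and its cKO signal was at least 1.68-fold higher. This was measured against the lowest signal among detected probes of each Control array, or its own signal where higher. The adjusted p of its fitted difference (0.0107, limma) rests on Control values below detection. Without cKO B, 0 transporters were called, and without Control B, 1 was (Slc1a4). Slc6a6 was not called without Control A, nor Slc7a3 without cKO A. Slc38a3, a glutamine carrier named after its values were seen, had a difference of -0.95 ± 0.26 (SE; adjusted p = 0.0554, limma), and was called as reduced under 5 full-sample alternatives and without cKO A.

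The integrated stress response list holds transcription factors, their targets and the kinases of eIF2 alpha. Of 26 genes, 23 were tested, 11 rose and 2 fell, a share called of 56.5% beside 11.7% of all genes, and the list median was 0.47. The list was chosen with earlier results of these data known, so a high share can follow from the choice. It is given as a description. Chac1, which breaks down glutathione, was detected on 0 Control arrays and had a cKO signal at least 8.61-fold higher. The adjusted p of its fitted difference (0.000889, limma) rests on Control values below detection and is not a test of this bound. Like Chac1, Atf3 and Trib3, named here after their values were seen, entered the fit only through the cKO arrays, which favours a higher signal there for all 3. Among the 20 genes of the list detected in both groups, 8 rose and 2 fell (50% called, beside 11.4% of all genes detected in both). Ddit3, the transcription factor CHOP, had log2 signals of 8.89 and 8.57 in cKO against 5.73 and 5.78 in Control, a difference of 2.97 ± 0.16 (SE, n = 2 and 2; adjusted p = 0.000889, limma). Ddit4, an inhibitor of mTORC1 signalling, had 8.999 and 9.06 against 7.38 and 7.07, a difference of 1.81 ± 0.16 (SE; adjusted p = 0.00316, limma). For both, the groups were far apart relative to the spread within them. The genes that fell were Ppp1r15a, which directs a phosphatase to eIF2 alpha, at -1.51 ± 0.29 (SE; adjusted p = 0.0229, limma), and Eif2ak1, a kinase of eIF2 alpha, at -0.71 ± 0.14 (SE; adjusted p = 0.0259, limma). Atf4, named after its value was seen because the background above turns on it, had 9.74 and 9.80 against 9.25 and 9.41, a difference of 0.44 ± 0.14 (SE; adjusted p = 0.0827, limma), and was not called. Without cKO A the list held 7 called genes, without cKO B 3 and without Control B 5, against 13 with all arrays. Over all genes 594, 163 and 181 were called in the same cases, against 1343. Leaving out 1 array leaves 1 in its group, so the calls of these fits rest on the spread of the other group.

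**Figure D4:**
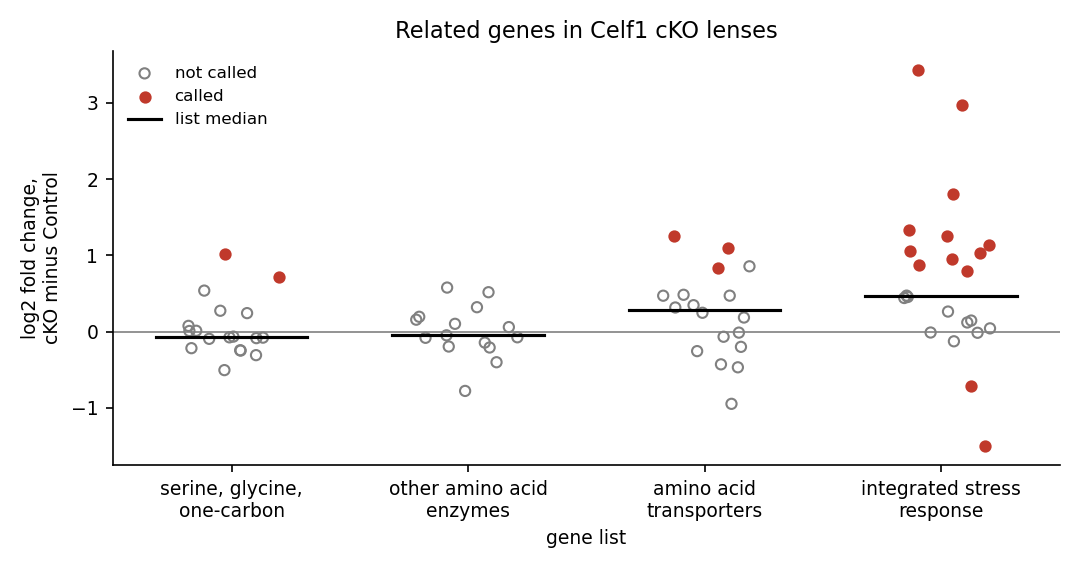
Log2 fold change, cKO minus Control, of the tested genes of 4 lists, with called genes filled and the list median as a bar. Of the called genes, 2 are in the one-carbon list, 0 among other enzymes, 3 among transporters and 13 in the integrated stress response list, of which 2 lie below 0. Fold changes of genes not detected on any Control array, such as Chac1, are fitted values.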

How the data were processed

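Total RNA of mouse lenses was profiled on 4 arrays. The authors deposited signal intensity in 2 tables, unnormalized and normalized by the rank-invariant method, exported with GSGX 1.9.0 per the file headers. Both deposited tables hold a detection p-value and the standard error of the signal over beads for each probe and array, and the standard errors given here are those of the unnormalized table. The authors' own analysis applied edgeR, a count model, which was not used here because the values are intensities. Of 45281 probes, 18 lines with shifted cells were left out, and 45263 were used. Symbols turned into dates were restored for 40 probes. Genes were named by RefSeq (GRCm38.p6) through Entrez identifier (29586 probes), accession (2759), symbol (2197) or older symbol (2371), and otherwise by the file (8350). The members and lists were chosen with earlier results of these data known.

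Unnormalized intensity was background corrected from detection p-values, offset by 16, quantile normalized and set on the log2 scale with limma 3.58.1 (R 4.3.3). Probes with detection p under 0.05 in at least 2 samples were averaged per gene, which gave 11518 genes. Groups were compared with lmFit and eBayes (two-sided), and p-values were adjusted over all genes by Benjamini-Hochberg. A call needed a mean log2 signal above 4.6, a log2 fold change beyond 0.58 in either direction and an adjusted p under 0.05. The fit was tested on simulated data. Named genes were all members, Celf1, up to 3 called genes of largest change per direction in each of 4 lists, and the 3 genes nearest to Phgdh and to Psat1. Replicate letters were not taken as pairs, since the A minus B differences of the groups correlated across genes at -0.01. Tables and figures were made with Python 3.11.15. The number of arrays limits the precision.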

Additional observations from a re-analysis of the deposited data

How the results depend on the processing

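Celf1 kept its sign in all 19 alternatives. It lost its call with the deposited table floored at 1 (-1.52, adjusted p = 0.0763, limma) and with no detection filter (-1.16, adjusted p = 0.0715, limma). On leaving out Control B it was at -1.53 and also lost its call. A fit that leaves out 1 array has 1 array in that group and takes its spread from the other group. It was at -0.64 with the same median on each array and -0.60 with no normalization. Leaving out 1 array moved Celf1 between -1.67 and -1.18, Phgdh between -1.02 and -0.96 and Psat1 between 0.90 and 1.26. Below, "global median" sets the median of all probes equal on each array, and "detected median" that of probes detected on all 4. Phgdh was at -0.81 with no background correction, -0.85 with an offset of 50, -0.19 with the global median, -0.91 with the detected median, -0.15 with no normalization and -1.04 with the floored table. Psat1 was at 1.86 with the global median and 1.895 with no normalization. Of the other 6 members, 4 were called with the global median and with no normalization, 1 with the detected median, and 0 on leaving out any 1 array. The one-carbon list, with 2 called genes as reported, had 0 with no background correction, an offset of 50, the floored table or no detection filter, 6 with the global median, 4 with the detected median, 7 with no normalization, 1 with detection in all samples, and 0 to 2 on leaving out 1 array. Other enzymes, with 0 as reported, had 8 with the global median and no normalization, 2 with the detected median, 0 to 2 on leaving out 1 array, and 1 (Oat, named after its values were seen) with no background correction, an offset of 50, cyclic loess, the deposited table with 16 added, detection in all samples, the brightest probe, eBayes with trend and robust, or the replicate block. Transporters, with 3, had 10 with the global median and no normalization, 5 with the detected median and with the replicate block, 0 with the floored table and no detection filter, and 0 to 4 on leaving out 1 array. The stress response list, with 13, had 2 with the floored table, 5 with no detection filter and 3 to 11 on leaving out 1 array. Of all 11518 genes, 7 were called with the floored table (0.0608%), and with no detection filter 207 of 28853 were (0.717%). Same-lettered samples share only a letter, and the replicate block changed no other list's count, with 1686 called over all genes against 1343. Uncalled members changed sign. With the detected median Shmt1 was at -0.34, Shmt2 at -0.14 and Slc7a11 at -0.13. Shmt2 was at -0.069 with detection in all samples and with the brightest probe, and Slc7a11 at -0.050 with the floored table. On leaving out 1 array, Shmt1 lay between -0.24 and 0.54, Shmt2 between -0.13 and 0.28, Mthfd2 between -0.087 and 0.21 and Slc7a11 between -0.0012 and 0.11. The cause was not tested.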
